A study of Musca domestica with 16 samples.

Results

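AQP (LOC101892953) is an aquaporin gene of the house fly, Musca domestica, and it was taken by its gene identifier as 1 of the 14631 genes in the authors' deposited table. Its ortholog group in that table holds 2 house fly genes, AQP and LOC101895611, both assigned to the single Drosophila gene FBgn0015872, and the second serves here as context. Messenger RNA was sequenced in 16 libraries from unmated adults 4 to 6 days old, kept at 25 °C. The 8 groups are heads of males, heads of females, testes and ovaries, each from strain CS and from strain CSaY. CS males carry the male determiner on chromosome III (IIIM males) and CSaY males carry it on the Y chromosome (YM males). Each of the 4 male groups had 3 libraries and each of the female groups had 1. The labels state neither how many flies went into a library nor that the male libraries came from separate cultures. Tests between male groups thus measure the spread between these libraries, and a female group of 1 library has no such spread. Where the strains are pooled, each male side holds 3 libraries of each strain and each female side holds 1 library of each. The spread of either side thus includes any strain difference.

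Aquaporins are membrane channels that let water, and in some members glycerol or other small solutes, cross the lipid bilayer along its gradient. In insects they are best known from epithelia that move fluid quickly, such as the Malpighian tubules and hindgut, and they also occur in glands, fat body and reproductive tissue. Insects carry several aquaporin genes, and related copies may be used in different tissues.

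AQP lies on scaffold NW_004764657 at positions 518359 to 543972, a span of 25614 bases, and the table places this scaffold on chromosome II (Muller element E). It is the last of the 17 genes of that scaffold in the table, and no other listed gene overlaps it. LOC101895611 lies on another scaffold, NW_004765526, at positions 29720 to 39358, and has no chromosome assigned. No source used here names the genome assembly of these positions.

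The measure is FPKM, by its name fragments relative to transcript length and to mapped fragments, so it can be compared between genes of 1 column. The columns are not all on 1 scale. In ovaries the pooled value of the median gene stood at 1.26 times the mean of its strain columns. The table holds 1 FPKM value per group, which for males is a single value for the 3 libraries, so no spread can be given beside a level. A gene is called different when the q value in the authors' deposited table is below 0.05. As a check of the tissue labels, the ovary marker bcd, a maternal patterning gene in Drosophila, stood at 249.7 FPKM or more in both ovary columns and at 1.96 FPKM or less in all the others. The only other marker gene with a matching symbol was yp3, a yolk protein gene listed for fat body, and no listed marker of testis or head matched by symbol. The markers were not matched by Drosophila ortholog, so such genes may still be among those measured. In CS and CSaY respectively, yp3 stood at 66.0 and 3.82 FPKM in male heads, at 346.7 and 1328 FPKM in female heads, at 7.05 and 13.6 FPKM in testes and at 108.9 and 27.7 FPKM in ovaries. It thus differed several-fold between groups in which AQP is compared below, and its part in the AQP values was not tested.

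AQP was expressed in all 8 groups, at a similar level in heads and testes and at a much lower level in ovaries. In male heads it stood at 305.2 FPKM in CS and 250.3 FPKM in CSaY. In testes it stood at 211.2 FPKM in CS and 177.3 FPKM in CSaY. In the female head libraries it stood at 192.9 FPKM in CS and 185.5 FPKM in CSaY. In the ovary libraries the values were 32.37 and 32.36 FPKM. In these strain columns male heads were highest, testes and female heads were interleaved below them, and both ovaries lay below every other group. In the columns that pool the strains, male heads (225.3 FPKM) did not lie above female heads (226.1 FPKM), and testis (192.6 FPKM) lay below both. In bulk tissue, fewer cells that express the gene and less of its RNA per cell cannot be told apart.

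Step by step, the order of levels in the strain columns ran from CS male heads through CSaY male heads, CS testes, CS female heads, CSaY female heads, CSaY testes and CS ovaries to CSaY ovaries. Each of the first 5 steps was between 1.04-fold and 1.22-fold. The step from CSaY testes to CS ovaries was 5.48-fold. Of the neighbouring pairs in this order, those between strains of 1 tissue and sex are tested in the authors' deposited table, and none of them was called. The other neighbouring pairs have no test. In the means of the strain columns, the median tested gene was higher in male than in female heads by 0.31 on the log2 scale. It was higher in testis than in ovary by 0.23. The steps between tissues or sexes are not corrected for such shifts, and their part in the order was not tested.

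Relative to all genes, AQP was among the most abundant transcripts outside the ovary. By rank it was number 613 of 14631 genes in CS male heads, the top 4.19%, and number 628 in CSaY male heads. In the female heads and testes its rank lay between the top 5.52% and the top 6.81%. In ovaries it was number 4211 in CS and 4207 in CSaY, within the top 28.8% in each.

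**Figure D1:**
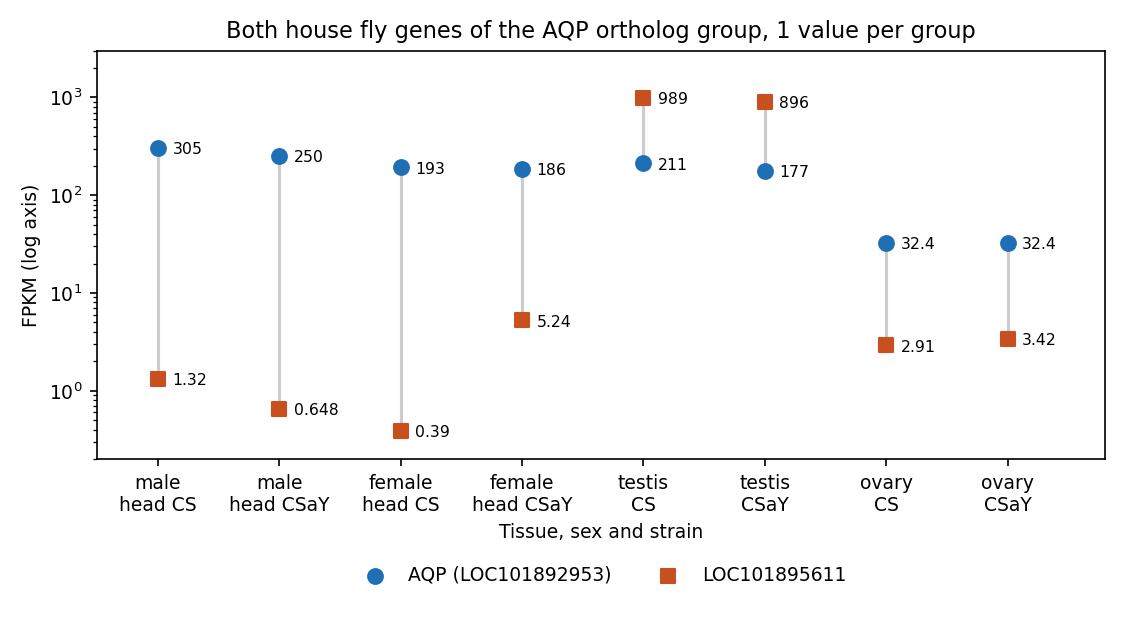
FPKM on a log axis for AQP (circles) and LOC101895611 (squares) in the 8 groups, with 1 value per group, and a grey line joining both genes of a group. AQP lies above the other gene in heads and ovaries, and LOC101895611 lies above AQP in both testis columns, at 989.4 and 896.2 FPKM.

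Between the strains, no difference of AQP was called in any of the 4 comparisons. The CSaY value was below the CS value in testes, male heads and female heads, and both ovary values were alike. In testes the level in CSaY was 0.840 times that in CS (log2 fold change of FPKM + 1 of -0.25), with q = 0.479 in the authors' deposited table. In that comparison 13% of 10275 tested genes were called, and 47.1% of them changed at least as much as AQP on this scale. In male heads the CSaY level was 0.820 times the CS level (log2 fold change -0.28), with q = 0.392 in the authors' deposited table. There 9.25% of 9441 tested genes were called, and 39.4% changed at least as much. A strain difference of AQP in males was thus not detected, and the table gives no interval for its size.

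In females each strain comparison sets 1 library against 1 library, so it compares those libraries and not the strains. The CSaY female head library held 0.962 times the AQP level of the CS library, with q = 0.998 in the authors' deposited table, where 0.772% of 9457 tested genes were called. Between the ovary libraries the log2 fold change of AQP was -0.00035, with q = 0.999 in the authors' deposited table, where 0.358% of 7831 tested genes were called. Of those ovary genes, 99.7% differed by at least as much as AQP. Whether the strain difference itself differs between tissues or sexes has no test in the table.

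Between the gonads, AQP was higher in testis than in ovary. The columns that pool the strains gave 192.6 FPKM in testis and 52.9 FPKM in ovary, a 3.64-fold difference (log2 fold change 1.84), with q = 0.000102 in the authors' deposited table. The direction was the same in each strain, with 6.52-fold in CS and 5.48-fold in CSaY, and the means of the strain columns gave 6.00-fold. The size thus depends on the kind of column, because the pooled ovary value of AQP was 1.63 times the mean of its strain columns, while the median gene stood at 1.26 times. A call in this comparison is common, since 73.6% of 10586 tested genes were called and 32.4% were called higher in testis. A change at least as large as that of AQP was seen in 46.5% of the tested genes.

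Between male and female heads, the pooled columns gave almost the same level of AQP, at 225.3 FPKM in males and 226.1 FPKM in females. It was not called, with q = 0.997 in the authors' deposited table, where 13.3% of 9679 tested genes were called. In the strain columns both male values lay above both female values, 1.58-fold in CS and 1.35-fold in CSaY. The mean of these columns was 277.7 FPKM in males and 189.2 FPKM in females, a log2 fold change of 0.55. The median tested gene was also shifted toward males in the strain columns, by 0.31 on the log2 scale, and was shifted toward females by 0.10 in the pooled columns. Relative to the median gene, AQP was higher in male heads by 0.24 in the strain columns and by 0.10 in the pooled columns, and neither value has a test of its own.

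Within 1 sex, the table holds no test between head and gonad, so these ratios are descriptions. AQP in testes stood at 69.2% of the male head level in CS and at 70.8% in CSaY. In ovaries it stood at 16.8% of the female head level in CS and at 17.4% in CSaY. Both strains thus gave nearly the same ratio in each sex within this kind of column. The pooled columns gave 85.5% for testis over male head and 23.4% for ovary over female head. Of the 11522 genes with at least 1 FPKM in either CS male tissue, 37.5% had a log2 ratio of testis to head as low as that of AQP. The median of those genes was higher in testis by 0.17 on the log2 scale. For comparison, 18.6% of the 10168 genes with at least 1 FPKM in either CS female tissue had a log2 ratio of ovary to head as low as that of AQP, and the median gene was higher in ovary by 0.47 on that scale.

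**Figure D2:**
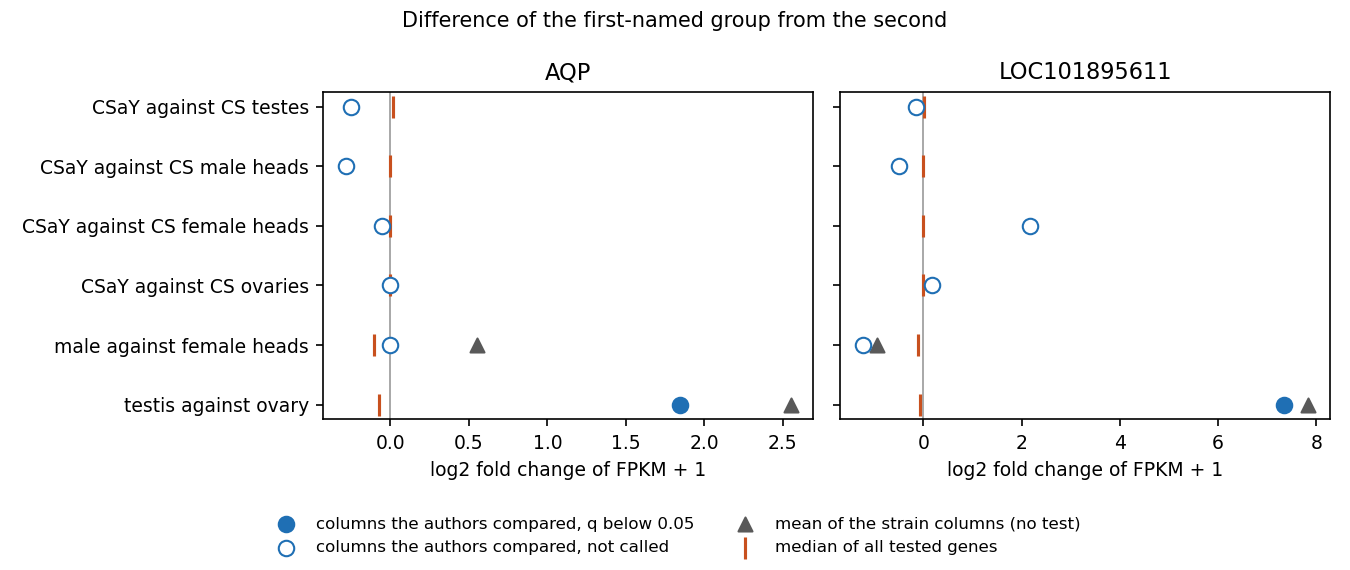
Log2 fold changes of FPKM + 1 for AQP (left) and LOC101895611 (right) in the 6 comparisons, on horizontal scales that differ between the panels. Filled circles passed the authors' q of 0.05, open circles did not, triangles are means of the strain columns without a test, and the bars mark the median of all tested genes. For both genes only testis against ovary was called, and for AQP the comparison of heads moves from -0.01 to 0.55 with the kind of column.

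LOC101895611, the other gene of the ortholog group, had a different distribution and was concentrated in testes. It stood at 989.4 FPKM in CS testes and 896.2 FPKM in CSaY testes, which placed it at number 185 and number 244 of all genes. In male heads it stood at 1.32 FPKM in CS and 0.648 FPKM in CSaY. In the ovary libraries it stood at 2.91 and 3.42 FPKM. The lower testis value was 171.1 times the highest value in any other group, whereas the lower testis value of AQP was 0.581 times its highest value elsewhere.

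In testes LOC101895611 exceeded AQP 4.69-fold in CS and 5.05-fold in CSaY. It made up 82.4% and 83.5% of the summed FPKM of both genes there. In the male heads its share of the sum was 0.432% in CS and 0.258% in CSaY. In the ovaries the share was 8.26% in CS and 9.56% in CSaY. AQP was thus the more abundant gene of the pair in every group except testes. Across the 8 columns Pearson's r between both genes, on log2(FPKM + 1), was 0.153, a description over columns that share strains and tissues. No source used here says how reads that match both genes were divided, which leaves each gene's level uncertain where the other is abundant, such as AQP in testes.

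The calls for LOC101895611 fell in the same comparison as those for AQP. Testis exceeded ovary 192.3-fold in the pooled columns (1064 against 5.53 FPKM), with q = 0.000102 in the authors' deposited table. The means of the strain columns gave 297.6-fold, with 339.5-fold in CS and 261.9-fold in CSaY. Its CSaY level was 0.906 times the CS level in testes, with q = 0.717 in the authors' deposited table. Both genes of the group were called higher in testis than in ovary, and 0 of the 2 was called in any of the other 5 comparisons. Of the 6760 genes tested in all 6 comparisons, 59.2% were called between testis and ovary alone, and 13.8% were called there alone and higher in testis.

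In female heads LOC101895611 was low in both libraries but uneven, at 0.390 FPKM in CS and 5.24 FPKM in CSaY. It was not called, with q = 0.998 in the authors' deposited table, although 0.899% of tested genes changed as much on the log2 scale of FPKM + 1. The CSaY value was 0.556% of its mean testis level and the CS value was 0.0414%. Of the 282 other genes with at least 100 FPKM in both testis columns and at least 100 times their level in male heads and ovaries, 53 were higher in the CSaY female head library and 103 were higher in the CS library. Their median was 0 FPKM in the CSaY library and 0.0347 FPKM in the CS library, while their summed level was 221.6 FPKM in CSaY and 186.5 FPKM in CS. Most of these values lie near 0, and their part in the value of LOC101895611 was not tested.

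A pair in which 1 gene is concentrated in testis is not rare in this table. Of 763 ortholog groups with exactly 2 house fly genes, 334 had both genes at 5 FPKM or more in at least 1 of the 8 columns. In 31 of these (9.28%), the pair of AQP included, exactly 1 gene had its lower testis value at least 10-fold above every other group, and in 20 (5.99%) both genes did. At a limit of 100-fold, which LOC101895611 also passes, the count was 20 groups with exactly 1 such gene. Among all 10348 genes at 5 FPKM or more in some column, 9.32% passed the 10-fold limit.

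Beside AQP on its scaffold, the nearest listed gene was LOC101892779, at positions 499841 to 501402, which ends 16956 bases before AQP starts. It shared the low ovary level, at 2.04 FPKM in CS and 2.92 FPKM in CSaY, with 82.5 and 66.8 FPKM in male heads and 44.7 and 32.3 FPKM in female heads. Its Pearson's r with AQP over the 8 columns was 0.965. In testes it was higher in CSaY, rising 1.67-fold from 60.2 FPKM in CS to 100.7 FPKM in CSaY, with q = 0.00412 in the authors' deposited table. AQP was not called there (q = 0.479 in the authors' deposited table), and no test compares the strain differences of both genes. Of the 15 tested genes on the scaffold, LOC101892779 was the only one called between the testes, in a comparison where 13% of all tested genes were called. The next gene, LOC101894257, stood at 6.996 FPKM in CS testes and 6.22 FPKM in CSaY testes, and was listed at 0 in both female heads and both ovaries.

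The genes whose profile was most like that of AQP were sought by Pearson's r of log2(FPKM + 1) over the 8 columns, among the 10348 genes with at least 5 FPKM in their highest column. The first 5 were LOC101890630, LOC101897777, LOC101890099, LOC101891522 and LOC101887315, with r from 0.999 down to 0.996. They shared the high value in CS male heads and the low values in both ovaries. LOC101890099 stood at 191.5 FPKM in CS male heads and 25.4 FPKM in CS ovaries, close to the proportions of AQP. LOC101887315 stood at 147.0 FPKM in CS male heads and 28.9 FPKM in CS ovaries. LOC101897777 had a wider range, with 40.3 FPKM in CS male heads and 0.0760 FPKM in CS ovaries.

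None of these 5 genes was called between the strains in testes or male heads by the authors' q, where 13% and 9.25% of all tested genes were called. Between testis and ovary 4 of the 5 were called, all higher in testis, where 73.6% of all tested genes were called and 32.4% were called higher in testis. The genes were chosen for a profile over the groups of all these comparisons, so neither the strain count nor the gonad count says anything further about them. LOC101890099 was not called between testis and ovary, with q = 0.265 in the authors' deposited table. Unlike AQP, LOC101897777 was called between male and female heads, with q = 0.0374 in the authors' deposited table. A high r was common, since 814 genes (7.87%) had r above 0.9, and r rests here on 8 points, of which both ovary values of AQP stand at least 5.48-fold below the rest. LOC101895611 was number 4642 in the same ranking.

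**Figure D3:**
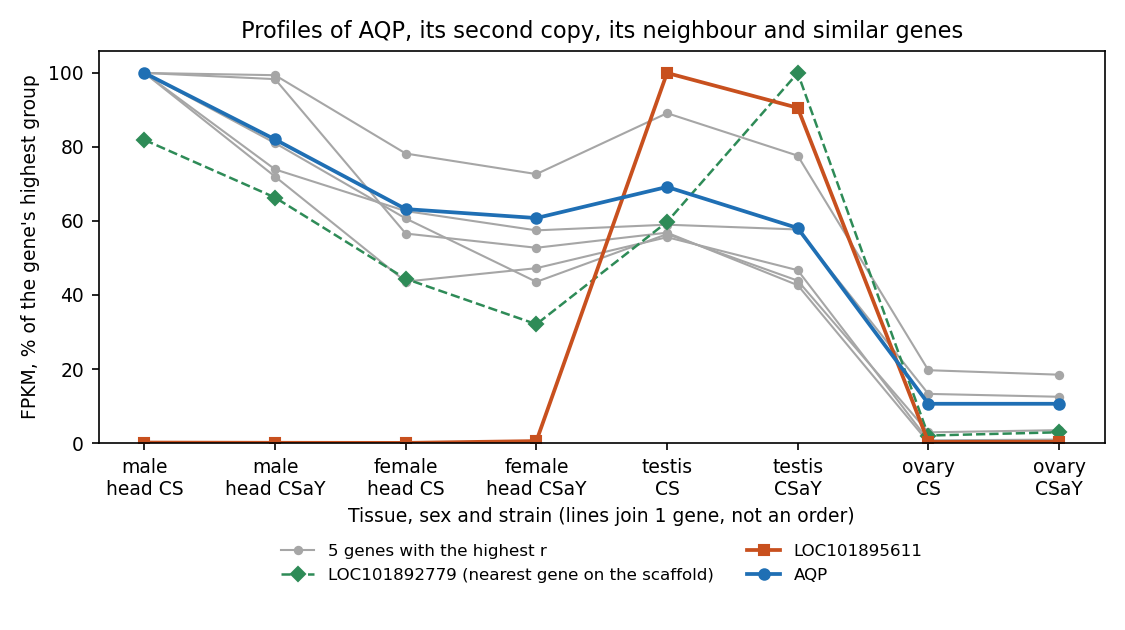
FPKM in the 8 groups as a percentage of each gene's highest group, for AQP, LOC101895611, the neighbouring gene LOC101892779 and the 5 genes with the highest r (grey). AQP stays between 58.1% and 100% in heads and testes and falls to 10.6% in both ovaries, while LOC101895611 stays below 1% outside testes.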

How the data were processed

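The deposited table holds 1 FPKM value per strain, sex and tissue and 4 columns that pool the strains, per the file headers. Named without a role in the submitters' processing notes are Cufflinks 2.2.1, Bowtie2 2.1.0.0, TopHat2 2.0.8b and CASAVA 1.8.2. The q value and the score (the test statistic) of each of 6 comparisons were computed by the authors and are used as deposited, and the score entered no computation. No source used here gives the adjustment of q, the genome build or whether counting used strand. Values of single male libraries and read depth were not used here. The FPKM worth of 1 read was estimated as 1.21 times as large in the CSaY as in the CS library of female heads and 0.969 times in ovaries. Each estimate is the most frequent ratio among genes with low values in both libraries. That ratio was held by 45 of 1051 such genes in female heads and 108 of 1244 in ovaries. It is assumed that these genes had equal read counts in both libraries.

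Folds are ratios of FPKM and log2 fold changes use FPKM + 1, with no test added. Pooled and strain columns are on different scales (median ratio of the pooled value to the mean of the strains 1.19 in female heads, 0.864 in male heads, 1.26 in ovaries, 1.00 in testes, over genes with a mean of at least 1 FPKM). The gene and the lists were chosen with earlier results of these data known. The genes named are AQP, its ortholog group, up to 2 neighbours on each side (it had none listed after it), the 5 genes with the highest r, and the markers. Symbols were taken from RefSeq's gene table for assembly GCF_030504385.1, which held 12168 of the identifiers and an informative symbol for 52. Its coordinates were not used. Of the 25 listed symbols of water and ion transport AQP alone matched, and no V-ATPase symbol did, so no other gene is described as a member of that list. Matching by Drosophila ortholog was not run, so other members may be present without a matching symbol. The correlation and the counting of calls were tested on simulated data. Python 3.11.15, numpy 2.4.6, pandas 2.3.3 and matplotlib 3.10.9 were used.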

Additional observations from a re-analysis of the deposited data

How the results depend on the processing

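No paired analysis was possible because the deposited table holds 1 value per group, and for the same reason no replicate was left out. The call of AQP between testis and ovary also passed q below 0.01 and a minimum of 2-fold. These settings can only remove calls, so they bear on no other comparison, and the calls rest on the authors' q, which a pseudocount cannot change. A pseudocount of 0.1 FPKM left the direction of all 6 fold changes as it was. The sex difference in heads (log2 -0.01 in the pooled columns) turned to 0.55 with the mean of the strain columns and to 0.10 after subtracting the median of all tested genes. The difference between the ovary libraries turned from -0.00035 to 0.0032 after the same subtraction. With the pooled columns the log2 ratio of testis to male head moved from -0.53 in CS and -0.50 in CSaY to -0.23, and that of ovary to female head from -2.54 and -2.48 to -2.08. Of the 5 genes most like AQP, 3 stayed among the first 5 with a pseudocount of 0.1 FPKM, 1 with Spearman's correlation, and 5 with a minimum of 1 FPKM. The count of 31 gene pairs with 1 testis-concentrated gene, a setting chosen after the data were seen, became 44 at 5-fold, 20 at 100-fold and 42 with a minimum of 1 FPKM. Alternatives for the transport list were not run, since AQP was its sole match by symbol.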
